A study of Mus musculus with 8 samples.

Results

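The 37 genes described here drive or mark the cell division cycle: cyclins and their kinases, E2F and FOXM1 transcription factors, the replicative helicase, enzymes of deoxynucleotide synthesis, and the kinases and spindle proteins of mitosis. They were chosen by symbol, and each was found among the 22946 rows of the liver count table. The cyclin D1 row is merged with the microRNA gene Mir3962 and the Foxm1 row with 4933413G19Rik, and their counts cannot be divided. RNA-seq counts came from livers of C57 Black mice that, from 8 weeks of age, received chow or a high fat diet, here HFD, over 8 weeks. The 4 groups, of 2 libraries each, were wild-type on chow (libraries 1 and 2), wild-type on HFD (5 and 6), MLL4 het on chow (3 and 4) and MLL4 het on HFD (7 and 8). MLL4, encoded by Kmt2d, is a histone methyltransferase that marks enhancers. The labels give neither the allele nor the sex of the mice, nor do they say that each library is a separate animal. The p-values therefore measure only the spread between libraries, which may be technical.

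A cell commits to division when D-type cyclins with CDK4 or CDK6, and then cyclin E with CDK2, inactivate the retinoblastoma protein and release E2F factors, which switch on genes of DNA replication. The MCM helicase is loaded at origins and unwinds the DNA, PCNA clamps polymerases to it, and ribonucleotide reductase and thymidylate synthase supply the building blocks. Mitosis is then run by CDK1 with B-type cyclins, by Aurora and Polo-like kinases and by the spindle checkpoint. Hepatocytes of an adult liver are mostly quiescent and many are polyploid, so transcripts of mitosis are scarce in this tissue and can come from any dividing cell in it. In whole-liver RNA, fewer cells of a type and less RNA per cell cannot be told apart.

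Library totals ran from 14142884 to 18928676 counts, and the 37 genes together took between 2706 and 3715 of them. Levels are given in CPM, counts scaled to a library total of 1e+06 and corrected with TMM factors, and 3 counts correspond to 0.161 to 0.213 CPM. Hepatocyte markers such as albumin summed to at least 67217 CPM in every library. Kmt2d, in the table under its older symbol Mll2, stood at 61.2 to 69.6 CPM in wild-type and 59.9 to 75.3 CPM in MLL4 het libraries, with a log2 difference of 0.01 ± 0.13 (SE) on chow (edgeR adjusted p = 0.975) and 0.11 ± 0.12 on HFD (edgeR adjusted p = 0.760). The RNA level did not differ beyond the spread between libraries, and the mice are called het-labelled here. Libraries of a group also differed for these genes. Library 5 exceeded library 6 in 30 of the 37 genes, and library 3 exceeded library 4 in 29, against 21 for library 1 over 2 and 19 for library 7 over 8. The same counts were not made over all tested rows, so these differences are not shown to be particular to these genes.

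Levels spanned a wide range, from Pcna with 323 to 452 counts per library to Bub1 with 1 to 4. Levels per kb of exon compare genes only roughly, since the exons of all annotated transcripts are merged. On that scale the highest means over the 8 libraries were 9.82 CPM per kb for Pcna and 6.92 for Cdk4. Tyms followed with 3.76, the merged Ccnd1 row with 3.02 and Mcm7 with 2.77. The lowest were 0.0286 CPM per kb for Bub1, a spindle checkpoint kinase, and 0.0676 for Ccnb1, cyclin B1. Without correction for length, 7 genes averaged 10 CPM or more and 14 averaged under 1 CPM. A filter on low counts kept 32 of the 37 genes among 12593 tested rows. Ccnb1, Plk1, Aurkb, Bub1 and Tpx2, all genes of mitosis, were not tested and had between 1 and 16 counts in a library.

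**Figure D1:**
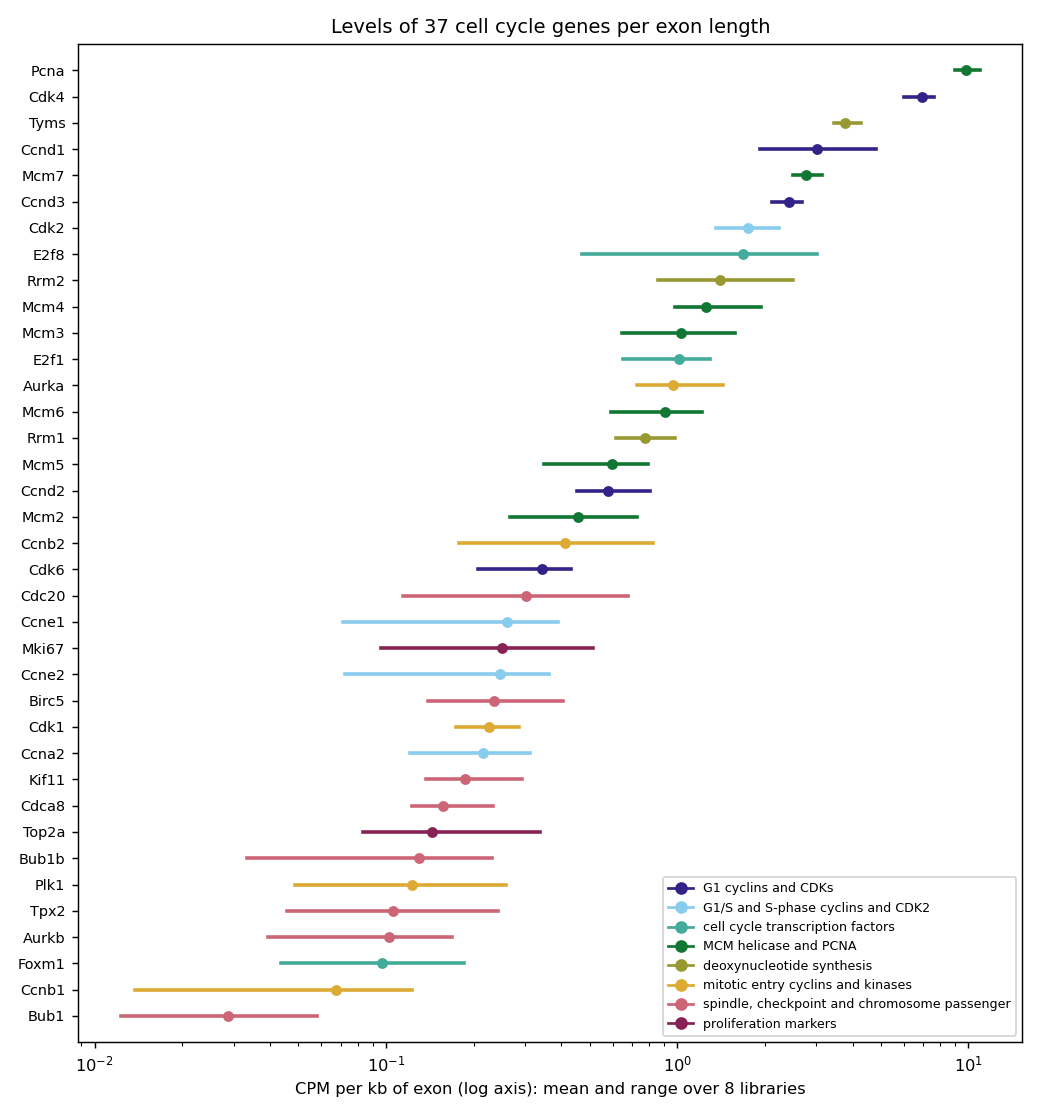
Level of each of the 37 genes in CPM per kb of exon on a log axis; points are means and bars the range over 8 libraries, coloured by role. Pcna (9.82) and Cdk4 (6.92) lead, and genes of mitosis fill most of the lower ranks, down to Bub1 (0.0286).

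In each gene below, values are listed for the wild-type chow, wild-type HFD, het-labelled chow and het-labelled HFD libraries, in that order. Each group serves in more than 1 comparison, so the comparisons share libraries. HFD against chow in wild-type livers asks which genes differ with the diet. Of the 32 tested genes, 1 rose, Rrm2, and none fell, where 4.59% of all tested rows passed the edgeR test at an adjusted p under 0.05, 2.37% upward and 2.22% downward. On the same diet in het-labelled livers 1 gene fell, Mcm6, and none rose, against 3.02% of all tested rows (1.48% downward and 1.53% upward). With unadjusted p under 0.05, 7 genes were higher and 2 lower on HFD in wild-type livers (19.1% of all rows in either direction), and 4 were lower and 0 higher in het-labelled livers (18.2% of all rows).

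The median log2 change on HFD over the 32 tested genes was 0.21 in wild-type livers, where that of all tested rows was 0.02. It was -0.20 in het-labelled livers, where that of all tested rows was -0.01. Both HFD libraries stood above both chow libraries for 12 of the 32 genes in wild-type livers, against 30.6% of all tested rows, and below them for 5, against 25.2%. In het-labelled livers 4 stood above (22.3% of all rows) and 10 below (22.4% of all rows). Single libraries carried much of these medians. Without library 5 the wild-type median was -0.02, and without library 6 it was 0.42. Without library 3 the het-labelled median was -0.03, and without library 4 it was -0.42.

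**Figure D2:**
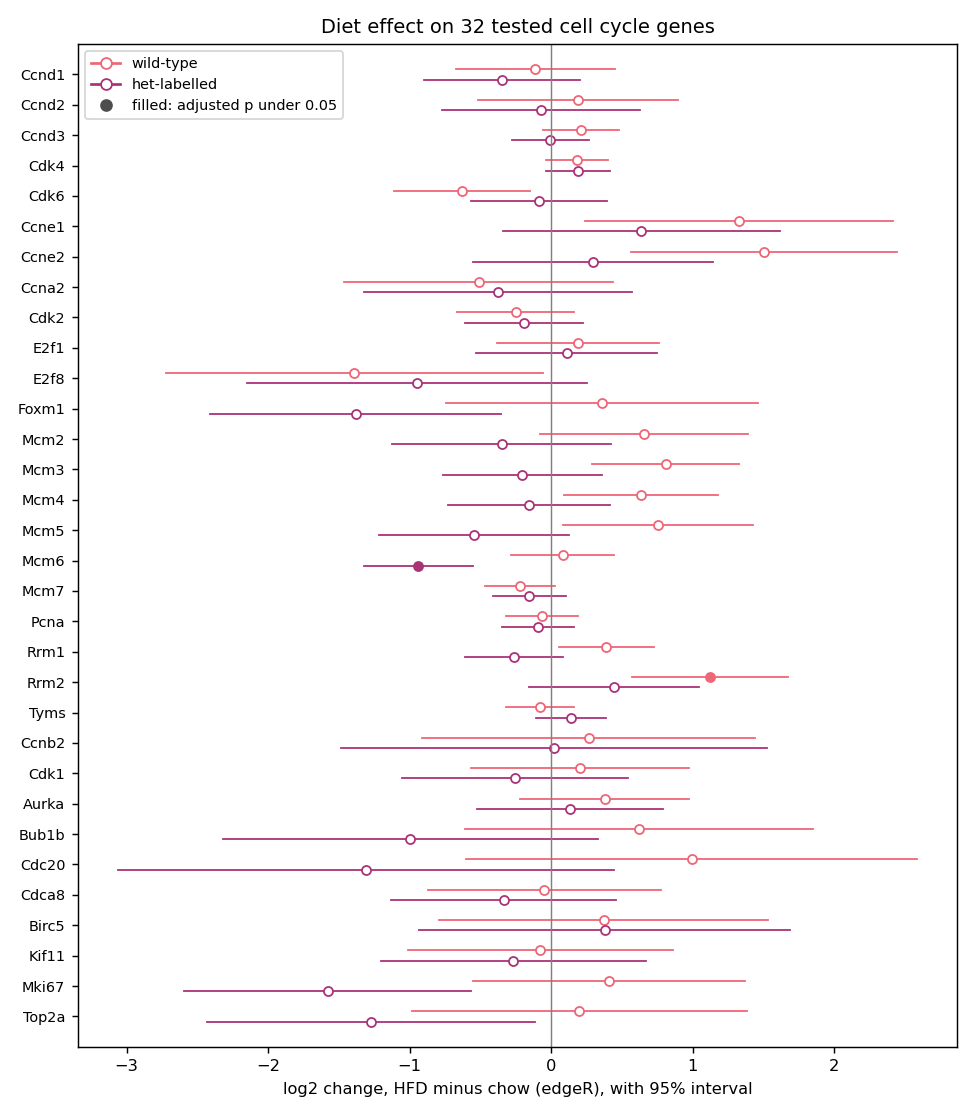
Log2 change on HFD against chow for the 32 tested genes in wild-type and het-labelled livers, from the edgeR fit, with 95% intervals; filled points have an adjusted p under 0.05. Only Rrm2 in wild-type (1.12) and Mcm6 in het-labelled livers (-0.94) are filled, and most intervals cross 0.

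Rrm2, the small subunit of ribonucleotide reductase and a gene whose transcript peaks in S phase, rose on HFD in wild-type livers. It stood at 2.46 and 3.19, 5.36 and 6.94, 3.19 and 2.38, and 4.29 and 3.20 CPM, from 39 and 55, 93 and 127, 45 and 35, and 80 and 45 counts. Both wild-type HFD libraries exceeded every other library. The group mean went from 2.82 ± 0.52 (SD, n = 2) to 6.15 ± 1.11 CPM (SD, n = 2), a log2 change of 1.12 ± 0.24 (SE; edgeR adjusted p = 0.0375). In het-labelled livers the log2 change was 0.44 ± 0.26 (edgeR adjusted p = 0.432), and averaged over both genotypes Rrm2 rose by 0.78 ± 0.18 (edgeR adjusted p = 0.0280), where 10.4% of all tested rows passed (5.56% upward and 4.84% downward). No other gene passed in that average, and 4 were higher and 4 lower at unadjusted p under 0.05 (25.3% of all rows). The wild-type call was lost without library 1, 2, 5 or 6, with adjusted p from 0.0827 to 0.283, and the averaged call without library 1, 2, 4, 6 or 7 (0.0561 to 0.114).

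The partners of Rrm2 in deoxynucleotide synthesis did not pass. Rrm1, the large subunit of the same enzyme, stood at 7.75 and 7.53, 10.8 and 9.24, 9.35 and 8.64, and 6.81 and 8.25 CPM, from 116 to 187 counts. Its wild-type HFD libraries lay above the wild-type chow libraries, with a log2 change of 0.39 ± 0.15 (edgeR adjusted p = 0.195). Tyms, thymidylate synthase, stood at 23.6 and 22.4, 21 and 22.5, 21.04 and 23.5, and 23.2 and 25.9 CPM, from 297 to 433 counts. Its wild-type groups overlapped, with a diet difference between -0.32 and 0.16 at 95%.

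Mcm6, a subunit of the MCM helicase, fell on HFD in het-labelled livers. It stood at 4.09 and 4.29, 4.50 and 4.37, 5.67 and 5.24, and 2.90 and 2.77 CPM, from 65 and 74, 78 and 80, 80 and 77, and 54 and 39 counts. The het-labelled chow libraries were the highest of all 8 and the het-labelled HFD libraries the lowest. The het-labelled mean went from 5.45 ± 0.30 (SD, n = 2) to 2.83 ± 0.09 CPM (SD, n = 2), a log2 change of -0.94 ± 0.17 (SE; edgeR adjusted p = 0.0269). In wild-type livers it was 0.08 ± 0.16 (edgeR adjusted p = 0.836). The test of the difference between the diet effects, an interaction of -1.02 ± 0.23, did not pass (edgeR adjusted p = 0.580). The call was lost with DESeq2 (adjusted p = 0.0798), in a fit to het-labelled libraries alone (0.119) and without library 1, 2, 3, 4, 7 or 8 (0.0550 to 0.0925). Over 15 alternatives the adjusted p ran from 0.0111 to 0.119.

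The other helicase subunits did not pass in any comparison. Mcm3 stood at 3.46 and 2.96, 5.94 and 5.30, 3.97 and 3.13, and 3.65 and 2.42 CPM, from 34 to 103 counts. The wild-type HFD libraries were its highest pair, with a log2 change of 0.81 ± 0.23 (edgeR adjusted p = 0.0885), which passed only in a fit to wild-type libraries alone (adjusted p = 0.0330). Its change in het-labelled livers was -0.20 ± 0.25 (edgeR adjusted p = 0.729). Mcm4 stood at 3.72 and 3.88, 6.98 and 4.86, 5.24 and 3.54, and 3.81 and 4.05 CPM, from 52 to 121 counts. Its wild-type log2 change was 0.64 ± 0.24 (edgeR adjusted p = 0.189).

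Mcm5 stood at 2.02 and 1.39, 3.17 and 2.57, 2.97 and 2.92, and 2.47 and 1.49 CPM, from 21 to 55 counts. Both the wild-type HFD and the het-labelled chow libraries lay above wild-type chow, by log2 0.76 ± 0.30 (edgeR adjusted p = 0.209) and 0.80 ± 0.30 (edgeR adjusted p = 0.266). Mcm2 stood at 2.71 and 2.55, 5.08 and 3.22, 3.97 and 2.79, and 3.32 and 1.85 CPM, from 26 to 88 counts. Its wild-type diet difference was 0.65 ± 0.32 (edgeR adjusted p = 0.319). In Mcm2 library 5 was the highest of the 8. All 5 of Mcm2 to Mcm6 had both wild-type HFD libraries above both chow libraries, an order held by 12 of the 32 tested genes and 30.6% of all tested rows, and none passed in that comparison.

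Mcm7 and Pcna, the most abundant genes of the group, did not follow that order. Mcm7 stood at 13.9 and 13.3, 12.2 and 11.1, 12.4 and 12.6, and 11.4 and 11.02 CPM, from 155 to 229 counts. All 4 HFD libraries were below all 4 chow libraries, with a log2 change of -0.19 ± 0.08 over both genotypes (edgeR adjusted p = 0.177), an order that no other tested member and 5.88% of all tested rows held. Pcna, the sliding clamp, stood at 23.1 and 26.2, 25.03 and 22.1, 24.8 and 22.7, and 21.6 and 23.0 CPM. Its groups overlapped in every comparison, and the wild-type diet difference lay between -0.32 and 0.19 at 95%.

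**Figure D3:**
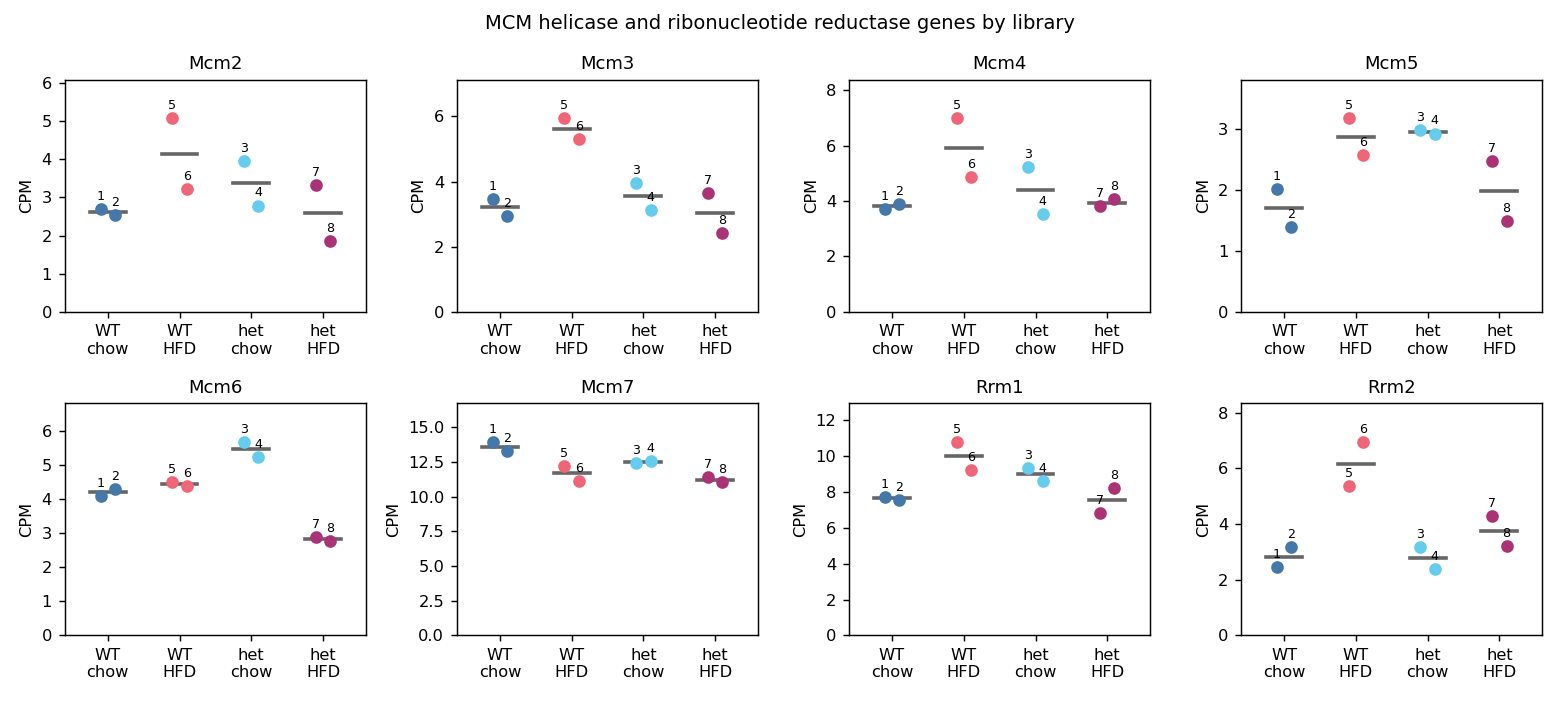
CPM of Mcm2 to Mcm7, Rrm1 and Rrm2 in each library, numbered as in the text, with group means as bars and axes from 0. Wild-type HFD libraries 5 and 6 are the highest for Mcm3 and Rrm2, and het-labelled HFD libraries 7 and 8 the lowest for Mcm6.

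The promoters of replication genes that differ in this pattern are shown to allow their letters to be compared. Each runs from 250 bases before to 50 after the start, 5′ to 3′ on the gene's strand, from RefSeq on GRCm38.p6, and capitals mark matches to the motifs searched. Mcm6 lies at chr1:128359656-128359955 on the minus strand, Mcm3 at chr1:20820263-20820562 on the minus strand and Rrm2 at chr12:24708004-24708303 on the plus strand.
Mcm6: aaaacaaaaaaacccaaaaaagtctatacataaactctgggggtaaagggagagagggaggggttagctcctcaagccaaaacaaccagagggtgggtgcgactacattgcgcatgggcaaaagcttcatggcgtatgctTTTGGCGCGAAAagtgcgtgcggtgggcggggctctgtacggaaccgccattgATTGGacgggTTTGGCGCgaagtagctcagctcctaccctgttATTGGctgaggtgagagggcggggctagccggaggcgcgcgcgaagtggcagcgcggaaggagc
Mcm3: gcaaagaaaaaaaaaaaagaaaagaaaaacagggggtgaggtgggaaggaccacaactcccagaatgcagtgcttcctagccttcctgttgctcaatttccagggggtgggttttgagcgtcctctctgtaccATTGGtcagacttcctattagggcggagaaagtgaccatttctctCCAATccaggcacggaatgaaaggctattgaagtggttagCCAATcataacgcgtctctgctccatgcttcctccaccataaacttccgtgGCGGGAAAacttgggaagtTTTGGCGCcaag
Rrm2: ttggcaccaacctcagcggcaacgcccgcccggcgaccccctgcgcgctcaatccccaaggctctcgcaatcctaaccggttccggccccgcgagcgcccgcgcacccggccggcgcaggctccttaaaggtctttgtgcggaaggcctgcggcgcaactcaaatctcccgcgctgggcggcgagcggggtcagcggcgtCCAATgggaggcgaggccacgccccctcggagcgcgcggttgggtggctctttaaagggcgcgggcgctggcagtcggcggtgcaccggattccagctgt
The searches, on both strands, were for E2F letters (TTTCCCGC, TTTGGCGC, TTTCGCGC or TTTGCCGC), for the cell cycle homology region CHR (TTTGAA or TTCGAA) and for CCAAT, the letters of the NF-Y box. The Mcm6 promoter holds E2F letters at -110 to -103, at -106 to -99, overlapping the first, and at -47 to -40, counted from the start. The Mcm3 promoter holds them at 20 to 27 and at 39 to 46. The Rrm2 window has no match to these E2F letters and 1 CCAAT match. A match is a description of letters, not evidence of a bound site.

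Of the 37 genes, 29 had a promoter in the table. E2F letters were in 4 of 9 promoters of replication and deoxynucleotide genes (Mcm3, Mcm5, Mcm6 and Mcm7) and in 1 of 13 of mitosis, against 2.6% of all 27025 promoters of the same length. CHR letters were in 11 of 13 promoters of mitosis and 2 of 9 of replication, against 21.7% of all promoters. CCAAT was in 12 of 13 and 8 of 9, against 41.1% of all. Among the 29 promoters, 2 matches overlapped a match to another motif. Of the 4 replication genes with E2F letters, Mcm3, Mcm5 and Mcm6 had both wild-type HFD libraries above both chow libraries (30.6% of all tested rows), and Mcm7 had both below (25.2% of all tested rows). Among those without E2F letters, Mcm2, Rrm1 and Rrm2 held the same upward order, and Pcna and Tyms overlapped. A link between letters and order was not tested.

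The G1 cyclins and kinases were among the more abundant genes and none passed in any comparison. Cdk4, the kinase partner of D cyclins, stood at 21.4 and 21.4, 24.8 and 23.7, 19.5 and 21.8, and 24.0 and 23.2 CPM. All 4 HFD libraries exceeded all 4 chow libraries, by log2 0.19 ± 0.07 over both genotypes (edgeR adjusted p = 0.135), an order shared with Rrm2 alone among the tested genes and with 7.19% of all tested rows. For Rrm2 the order was a near tie, with 3.199 CPM in HFD library 8 against 3.187 CPM in chow library 3, each from 45 counts. Ccnd3, cyclin D3, stood at 19.6 and 18.6, 23.5 and 20.7, 20.0 and 23.6, and 22.5 and 20.9 CPM, with a wild-type diet difference of 0.21 ± 0.12 (edgeR adjusted p = 0.393).

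Ccnd1, the cyclin that carries growth signals to CDK4, stood at 12.6 and 12.4, 14.1 and 9.07, 22.7 and 14.1, and 14.2 and 14.6 CPM, in the merged row. Library 3 was the highest, and all 4 het-labelled libraries exceeded all 4 wild-type ones, the nearest by under 0.01 CPM, an order held by no other tested gene here and by 4.10% of all rows (the reverse by 4.24%). The log2 difference over both diets was 0.44 ± 0.17 (edgeR adjusted p = 0.199). Cdk6 stood at 5.04 and 6.03, 4.27 and 2.90, 5.17 and 5.24, and 5.15 and 4.62 CPM, from 53 to 104 counts. Its wild-type HFD libraries were the lowest of the 8, with a log2 change of -0.63 ± 0.21 (edgeR adjusted p = 0.147). Ccnd2, cyclin D2, ran from 4.26 to 7.58 CPM and overlapped in every comparison. Exons of Ccnd1 and Cdk4 overlap exons of genes on the opposite strand over 23.4% and 19.7% of their length, and reads from such stretches cannot be assigned without strand.

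The cyclin E genes, which start S phase with CDK2, were low. Ccne1 stood at 0.189 and 0.464, 1.04 and 0.656, 0.567 and 0.680, and 1.02 and 0.924 CPM, from 3 and 8, 18 and 12, 8 and 10, and 19 and 13 counts. Ccne2 stood at 0.252 and 0.522, 1.27 and 0.984, 0.992 and 0.748, and 1.13 and 0.995 CPM, from 4 and 9, 22 and 18, 14 and 11, and 21 and 14 counts. In both genes the wild-type chow libraries were the lowest of the 8, and 17.4% of the Ccne2 exon length overlaps exons of Ints8 on the opposite strand. The wild-type diet changes were 1.33 ± 0.48 for Ccne1 (edgeR adjusted p = 0.173) and 1.50 ± 0.41 for Ccne2 (edgeR adjusted p = 0.0821). Without library 1 they were 0.84 and 1.08, and without library 2 they were 2.11 and 2.12. On chow, Ccne2 was higher in het-labelled libraries by 1.13 ± 0.45 (edgeR adjusted p = 0.278).

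Cdk2 and cyclin A2 did not share that order. Both had their wild-type HFD libraries below their wild-type chow libraries, as did 25.2% of all tested rows. Cdk2 stood at 11.2 and 11.5, 10.7 and 8.47, 10.1 and 13.9, and 9.71 and 11.4 CPM, with a wild-type diet difference of -0.25 ± 0.18 (edgeR adjusted p = 0.515). Ccna2, which acts with CDK2 in S phase, stood at 0.882 and 1.04, 0.865 and 0.492, 1.27 and 0.816, and 0.643 and 0.995 CPM, from 9 to 18 counts. Its difference in wild-type livers was -0.51 ± 0.42 (edgeR adjusted p = 0.570).

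Among the transcription factors, E2f8 varied most. This atypical E2F represses E2F targets and is known for its part in hepatocyte polyploidy. It stood at 13.1 and 5.50, 4.50 and 2.57, 14.7 and 16.4, and 3.70 and 12.9 CPM, from 47 to 241 counts. Libraries of 1 group differed 2.38-fold on wild-type chow and 3.48-fold on het-labelled HFD. Its exons overlap those of a gene on the opposite strand over 11.2% of their length. The log2 change on HFD was -1.39 ± 0.59 in wild-type (edgeR adjusted p = 0.240) and -0.95 ± 0.53 in het-labelled livers (edgeR adjusted p = 0.398). Over both genotypes it was -1.17 ± 0.40 (edgeR adjusted p = 0.102), and -1.73 with adjusted p = 0.0139 without library 8. The adjusted p ran from 0.0139 to 0.348 over 14 alternatives, of which 2 passed.

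E2f1, an activator of S-phase genes, stood at 4.09 and 2.96, 4.04 and 3.99, 2.62 and 2.52, and 3.38 and 2.06 CPM, from 29 to 73 counts. It was lower in het-labelled livers by a log2 value of -0.49 ± 0.19 over both diets (edgeR adjusted p = 0.185). Foxm1, an activator of mitotic genes, had in its merged row 4 and 9, 7 and 11, 15 and 13, and 6 and 6 counts, or 0.252 and 0.522, 0.404 and 0.601, 1.06 and 0.884, and 0.322 and 0.426 CPM. The het-labelled chow libraries were its highest. The difference was -1.38 ± 0.45 on HFD in het-labelled livers (edgeR adjusted p = 0.150) and 1.30 ± 0.45 between genotypes on chow (edgeR adjusted p = 0.227).

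The 15 genes of mitosis and proliferation were scarce, and none of the 10 that were tested passed in any comparison. Their summed level was 13.2 and 11.4, 18.5 and 12.1, 21.4 and 11.4, and 9.76 and 11.2 CPM, from 210 and 196, 321 and 221, 302 and 167, and 182 and 157 counts. Libraries 3 and 5 stood above all others, while their partners 4 and 6 lay near the wild-type chow pair. Library 3 exceeded library 4 in 15 of the 15 genes, library 5 exceeded library 6 in 11, library 1 exceeded library 2 in 10 and library 7 exceeded library 8 in 6. How often all tested rows held these orders was not counted.

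Mki67, whose protein Ki-67 coats mitotic chromosomes and serves as the usual marker of cycling cells, stood at 2.39 and 1.74, 3.52 and 1.97, 5.17 and 2.65, and 0.965 and 1.71 CPM, from 38 and 30, 61 and 36, 73 and 39, and 18 and 24 counts. The het-labelled HFD libraries were the lowest, with means of 3.91 ± 1.78 (SD, n = 2) on chow and 1.34 ± 0.52 CPM (SD, n = 2) on HFD. The log2 change was -1.58 ± 0.45 (edgeR adjusted p = 0.106) in het-labelled and 0.41 ± 0.42 (edgeR adjusted p = 0.663) in wild-type livers. The het-labelled change passed with DESeq2 (adjusted p = 0.0380) and with no filter on low counts (0.0356), and its adjusted p ran from 0.0356 to 0.361 over 15 alternatives. The interaction was -1.99 ± 0.62 (edgeR adjusted p = 0.614).

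The Mki67 promoter is shown as an example of the mitotic arrangement, at chr7:135716330-135716629 on the minus strand of GRCm38.p6, from RefSeq, with CHR and CCAAT letters in capitals.
Mki67: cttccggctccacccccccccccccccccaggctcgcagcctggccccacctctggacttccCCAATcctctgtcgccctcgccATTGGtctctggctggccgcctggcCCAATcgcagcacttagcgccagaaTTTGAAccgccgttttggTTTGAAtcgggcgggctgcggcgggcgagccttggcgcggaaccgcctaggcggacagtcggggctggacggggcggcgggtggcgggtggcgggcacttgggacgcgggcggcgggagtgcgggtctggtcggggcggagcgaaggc
It holds CHR letters and CCAAT letters and no match to the E2F letters searched, an arrangement common among the 13 promoters of mitosis counted above.

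Top2a, the topoisomerase that untangles sister chromatids, stood at 1.26 and 0.811, 1.50 and 0.874, 3.05 and 1.16, and 0.751 and 0.995 CPM, from 20 and 14, 26 and 16, 43 and 17, and 14 and 14 counts. Library 3 was its highest, and the log2 change in het-labelled livers was -1.27 ± 0.51 (edgeR adjusted p = 0.229). It was -0.42 without library 3 and -1.83 without library 4. Among the kinases of mitotic entry, Aurka stood at 2.08 and 2.67, 3.63 and 2.57, 2.27 and 1.84, and 1.98 and 2.56 CPM, from 27 to 63 counts. Cdk1, the kinase that triggers mitosis, stood at 0.945 and 1.10, 1.38 and 0.984, 1.42 and 1.02, and 0.858 and 1.21 CPM, from 15 to 24 counts. Their wild-type groups overlapped, with diet differences of 0.38 ± 0.26 (edgeR adjusted p = 0.494) and 0.20 ± 0.34 (edgeR adjusted p = 0.802).

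Of the spindle and checkpoint genes, Kif11, the motor that separates spindle poles, stood at 1.57 and 1.10, 1.15 and 1.37, 2.20 and 1.02, and 1.07 and 1.63 CPM, from 15 to 31 counts. Cdca8, the passenger protein borealin, stood at 0.819 and 0.637, 0.692 and 0.710, 1.20 and 0.816, and 0.751 and 0.853 CPM, from 11 to 17 counts. Library 3 led in both, and neither passed, with het-labelled diet differences of -0.27 ± 0.41 (edgeR adjusted p = 0.797) and -0.34 ± 0.35 (edgeR adjusted p = 0.695). The remaining tested genes had 2 to 24 counts in a library: Ccnb2 (cyclin B2), Bub1b (a checkpoint kinase), Cdc20 (which activates the anaphase-promoting complex) and Birc5 (survivin). Untested Plk1, the Polo-like kinase, had 9 and 3, 7 and 5, 5 and 2, and 2 and 2 counts. Aurkb, the passenger kinase, had 6 and 2, 8 and 4, 7 and 4, and 6 and 2 counts. These counts are too few for a comparison of groups. Ccnb1 had 4 and 1, 9 and 6, 7 and 4, and 4 and 2 counts, and Tpx2, a spindle assembly factor, 5 and 9, 8 and 10, 16 and 5, and 4 and 6. Bub1 had 4 and 2, 3 and 1, 2 and 2, and 1 and 1 counts, so that its level is at or near the 3 counts below which a value carries little information.

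**Figure D4:**
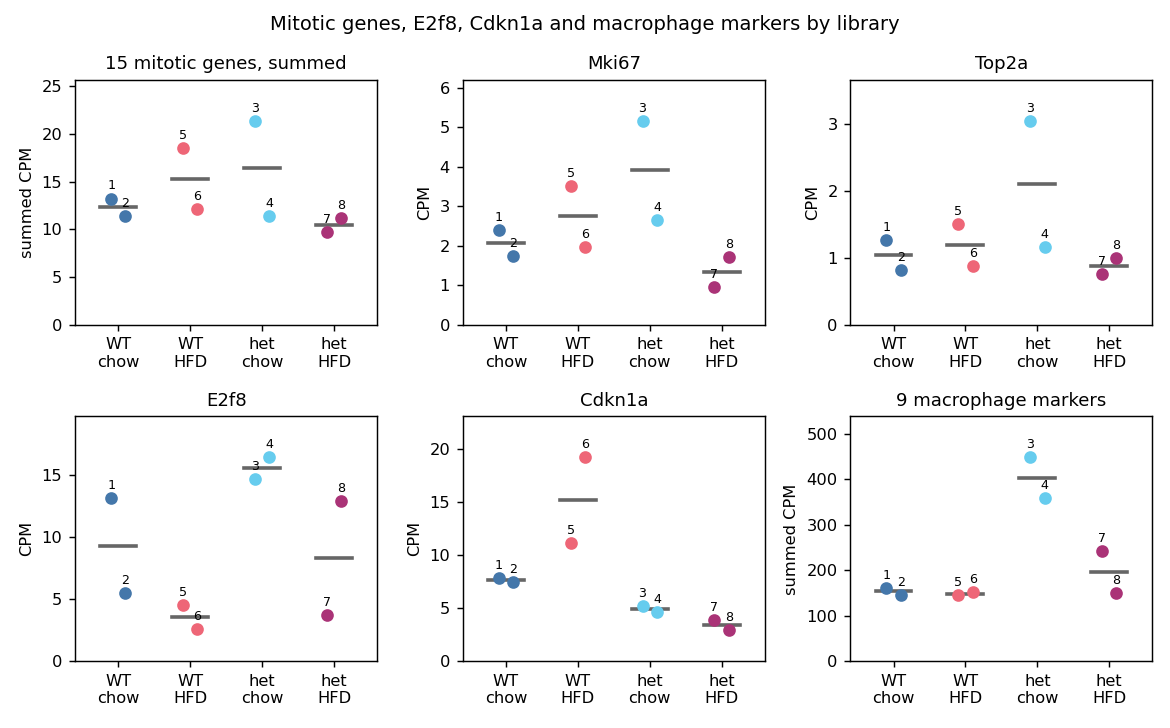
CPM by library for 15 mitotic genes summed, Mki67, Top2a, E2f8, the CDK inhibitor Cdkn1a and 9 macrophage markers summed, with group means as bars and axes from 0. Libraries 3 and 5 lead the mitotic sum (21.4 and 18.5), and both het-labelled chow libraries lead the macrophage markers (448 and 359).

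The genotype comparison asks how het-labelled and wild-type livers differ on the same diet. On HFD, edgeR called 0 of the 32 tested genes, where it called 0.445% of all tested rows (0.0953% higher and 0.349% lower). Limma-voom and DESeq2 also called 0. With unadjusted p under 0.05, 6 were lower in het-labelled livers (Mcm3, Mcm4, Mcm6, Rrm1, Rrm2 and Mki67) and 0 higher, where 13.8% of all tested rows passed in either direction. Their log2 differences were -0.87 ± 0.23 for Mcm3, -0.59 ± 0.24 for Mcm4, -0.64 ± 0.17 for Mcm6, -0.42 ± 0.15 for Rrm1, -0.70 ± 0.23 for Rrm2 and -1.07 ± 0.46 for Mki67. The edgeR adjusted p ran from 0.149 for Mcm6 to 0.348 for Mki67. Both het-labelled libraries were below both wild-type libraries for 11 genes (24.3% of all rows) and above for 4 (22.8% of all rows). The median difference was -0.26, against 0.00 for all tested rows, and -0.01 without library 5.

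On chow, edgeR again called 0 of the 32 genes, where 0.516% of all tested rows passed (0.326% higher and 0.191% lower), and limma-voom and DESeq2 called 0. With unadjusted p under 0.05, 4 were higher in het-labelled livers (Ccne2, Foxm1, Mcm5 and Mcm6, the last by 0.38 ± 0.16) and 0 lower, against 15.3% of all tested rows. Both het-labelled libraries were above both wild-type libraries for 12 genes (24.0% of all rows) and below for 2 (21.9% of all rows). The median difference was 0.24, against 0.01 for all tested rows, and 0.05 without library 3. Averaged over diets, edgeR, limma-voom and DESeq2 called 0 of the 32 genes, where edgeR called 3.24% of all rows (1.21% higher and 2.03% lower). At unadjusted p under 0.05, 2 were higher and 1 lower, against 20.4% of all rows.

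The interaction, which tests whether the diet effect differs between genotypes, gave edgeR calls for 0 of the 32 genes and for 0% of all 12593 rows. Limma-voom and DESeq2 called 0 of the 32 as well. At unadjusted p under 0.05, 7 genes had a lower diet effect in het-labelled livers (Foxm1, Mcm3, Mcm4, Mcm5, Mcm6, Rrm1 and Mki67) and 0 a higher one, where 7.15% of all tested rows passed. These values ran from -0.65 ± 0.21 for Rrm1 to -1.99 ± 0.62 for Mki67, and the smallest edgeR adjusted p was 0.580, for Mcm6. The diet effects in the 2 genotypes are therefore not shown to differ for any of these genes.

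Most other genes of the cycle did not pass. Of 34 tested genes of origins and replication forks, 29 of other mitotic functions and 13 of other E2F, DREAM and MYB proteins, 0 passed in either diet comparison or in the genotype comparison on either diet with edgeR. At unadjusted p under 0.05 in the wild-type diet comparison, 2 origin genes were higher and 1 lower, 1 mitotic gene was higher, and 1 E2F-related gene was higher, where 19.1% of all tested rows passed in either direction. In het-labelled livers 3 origin genes were lower, 4 mitotic genes were lower and 1 higher, and 1 E2F-related gene was higher, against 18.2% of all rows. Between genotypes on HFD, 3 origin genes and 5 mitotic genes were lower and 2 E2F-related genes higher at that level, against 13.8% of all rows. On chow, 2 origin, 1 mitotic and 2 E2F-related genes were higher, and 2 origin and 2 mitotic genes lower, against 15.3% of all rows. Anln, a scaffold of the dividing furrow, stood at 0.504 and 0.637, 0.692 and 0.601, 1.06 and 0.544, and 0.375 and 0.426 CPM, from 6 to 15 counts, with library 3 the highest. E2f7, the close relative of E2f8, had 46 counts in all 8 libraries and was not tested. Mybl2 had 77 counts in all, and its wild-type diet difference was 0.37 ± 0.53 (edgeR adjusted p = 0.762).

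Of 10 tested CDK inhibitors and pocket proteins, 1 passed between genotypes on HFD, where 0.445% of all tested rows passed, and the same gene passed over both diets, where 3.24% did. Cdkn1a encodes p21, an inhibitor of CDK2 that p53 induces. It stood at 7.87 and 7.48, 11.1 and 19.2, 5.24 and 4.62, and 3.86 and 2.91 CPM, from 125 and 129, 193 and 351, 74 and 68, and 72 and 41 counts. All 4 het-labelled libraries lay below all 4 wild-type libraries. On HFD it was lower in het-labelled livers by a log2 value of -2.15 ± 0.27 (edgeR adjusted p = 0.0244), and over both diets by -1.39 ± 0.19 (edgeR adjusted p = 0.0156). The wild-type diet difference was 0.98 ± 0.24 (edgeR adjusted p = 0.0580) and the interaction -1.51 ± 0.39 (edgeR adjusted p = 0.588). The call on HFD was lost without library 1 (0.0515), 2 (0.0541) or 8 (0.120) and in a fit to the HFD libraries alone (0.0650), with adjusted p from 2.24e-09 to 0.120 over 15 alternatives. The call over both diets was lost without library 1 (0.0503) or 2 (0.0754).

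The inhibitors Cdkn1b (p27) and Cdkn1c (p57) did not pass. Cdkn1b stood at 13.2 and 14.7, 12.9 and 12.4, 14.5 and 14.1, and 14.0 and 15.5 CPM, with a genotype difference on HFD of 0.22 ± 0.11 (edgeR adjusted p = 0.444). Cdkn1c stood at 0.630 and 0.695, 1.21 and 0.710, 0.567 and 0.816, and 1.39 and 0.711 CPM, from 8 to 26 counts. Its genotype difference on HFD was 0.18 ± 0.41 (edgeR adjusted p = 0.895). Neither shared the genotype order of Cdkn1a.

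Markers of other cells moved with some of these groups. The 9 Kupffer cell and macrophage markers, none at 0, summed to 147 to 161 CPM on wild-type chow, 145 to 152 on wild-type HFD, 359 to 448 on het-labelled chow and 150 to 242 on het-labelled HFD. Of the 9, 6 fell on HFD in het-labelled livers (1.48% of all tested rows) and 4 were higher in het-labelled than wild-type livers on chow (0.326% of all tested rows) with edgeR, and the first of these is the comparison in which Mcm6 fell. Within the het-labelled chow pair, library 3 was the higher for both the macrophage sum and the mitotic sum. On wild-type chow, library 1 was likewise higher than library 2 in both, with 161 against 147 CPM and 13.2 against 11.4 CPM. The HFD pairs went opposite ways: library 7 exceeded library 8 in the macrophage sum (242 against 150 CPM) and was lower in the mitotic sum (9.76 against 11.2 CPM). Library 5 was lower than library 6 in the macrophage sum (145 against 152 CPM) and higher in the mitotic sum (18.5 against 12.1 CPM). The part of macrophages in these values was not tested.

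Of 7 erythroid rows, the merged alpha and beta globin rows rose on HFD in wild-type livers with edgeR (2.37% of all tested rows), the comparison in which Rrm2 rose. The list summed to 258 to 320 CPM on wild-type chow, 654 to 828 on wild-type HFD, 240 to 253 on het-labelled chow and 350 to 371 on het-labelled HFD. Alas2, the only other tested row, stood at 119 and 120, 140 and 142, 72.0 and 63.8, and 69.9 and 61.2 CPM. Its log2 change on HFD was 0.24 in wild-type livers, where it was not called, and -0.05 in het-labelled livers. The globin rows changed there by 0.77 and 0.62, without passing. The markers Epb4.2, Slc4a1, Ermap and Rhag were at 0 in some or all libraries and never above 0.404 CPM. Of these, untested Slc4a1 had 1 and 1, 7 and 6, 1 and 0, and 5 and 3 counts. Its CPM was higher in each HFD library than in each chow library, an order that 7.19% of all tested rows held. Rrm2 was higher in library 6 than in library 5, while the erythroid sum was higher in library 5. The part of blood cells in the Rrm2 value was not tested.

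The sum of hepatocyte markers was 77107 to 84287 CPM in the 4 chow libraries and 67217 to 70869 CPM in the 4 HFD libraries. Albumin, with 45555 to 61942 CPM, made up most of that sum. Its 4 HFD libraries lay below its 4 chow libraries, an order held by 5.88% of all tested rows. The markers did not all fall on HFD: the log2 change was positive for 2 and negative for 5 in wild-type livers. In het-labelled livers it was positive for 3 and negative for 4. Of the 7, 1 passed in wild-type livers, where 2.22% of all tested rows passed downward. This was Cps1, an enzyme of the urea cycle, which fell by a log2 value of -0.65 ± 0.12 (edgeR adjusted p = 0.0188). Among T cell markers, Cd4 rose over both genotypes by 0.86 ± 0.21 (edgeR adjusted p = 0.0355), a comparison in which Rrm2 rose. Upward calls made up 5.56% of all tested rows there. Cd4 stood at 1.57 and 2.61, 3.23 and 3.83, 1.35 and 2.04, and 3.59 and 3.06 CPM. Lck, the only other tested T cell marker, went the other way, with a log2 change of -0.31 that was not called. The untested T cell markers had 0 to 10 counts in a library. Mean CPM on HFD was lower for Cd5 and Cd8a in both genotypes. For Cd2, Cd3d, Cd3e and Cd3g it was higher in wild-type and lower in het-labelled livers. The part of these cells in the Rrm2 value was not tested.

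Summed markers ran from 2.90 to 5.52 CPM for T cells, from 3.35 to 5.39 for B and plasma cells, from 0.710 to 2.05 for NK cells and from 0.577 to 2.31 for neutrophils and marrow myeloid cells. Endothelial markers ran from 103 to 166 CPM, stellate and fibroblast markers from 148 to 232 and cholangiocyte markers from 29.1 to 48.9. A het-labelled chow library held the highest value of the NK, neutrophil, endothelial and stellate sums, and no tested gene of these 7 lists passed in the diet comparison of either genotype or the genotype comparison on either diet. Of these lists, 0 of 5 NK markers, 1 of 7 neutrophil and marrow markers and 2 of 8 T cell markers had enough counts to be tested.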

How the data were processed

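The submitters deposited a table of whole-number read counts per gene, not normalized, for 8 libraries. Build mm9 and the tools TopHat2, HTSeq, CASAVA and DESeq are named per the submitters' processing notes, whose versions and roles are not given in the sources used here, nor is strandedness. Of 37 genes, 13 have exons that overlap exons of a gene on the opposite strand. In R 4.3.3, edgeR 4.0.16 kept 12593 of 22946 rows (filterByExpr) and fitted a quasi-likelihood model of 4 group means to TMM-scaled counts, with 4 residual and 4.77 prior degrees of freedom and a common biological coefficient of variation of 11.2%. Tests were 2-sided, adjusted by Benjamini-Hochberg over all tested rows and called under 0.05. SEs and 95% intervals were calculated back from the test statistic and are approximate. The procedure was tested on simulated data. Libraries of a group differed beyond counting noise, with chi-square per degree of freedom of 15.4 to 16.8 over all tested rows. Over the 37 genes it was 2.61 to 4.07.

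Alternatives were DESeq2 1.42.0, limma-voom (limma 3.58.1), other size factors, filters, fits to the compared groups, removal of the 10 largest rows, and removal of each library. The comparisons were the diet effect in each genotype and averaged over both, the genotype effect on each diet and averaged over both, and the interaction. The members, gene lists and marker lists were chosen with earlier results of these data known. By rule, each called gene, each member with an unadjusted p under 0.05 and the 2 most abundant members of each role are given in full, with up to 4 called genes and 6 reference genes of the other lists; other members are given by range and count. Exon lengths are merged exons of all transcripts in GENCODE on GRCm38, a later build than that of the counts. Promoters are from RefSeq, GRCm38.p6. A further erythroid marker is not reported here.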

Additional observations from a re-analysis of the deposited data

How the results depend on the processing

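Alternatives were run for 48 pairs of a gene and a comparison. These were the members with an unadjusted p under 0.05 and the called genes of the other cell cycle lists. The log2 change kept its sign in each pair under every alternative run. The pairs were picked by their p-values in these same libraries, so a kept sign was nearly fixed in advance and gives no support. The count of genes called for the diet in wild-type livers was 2 (Mcm3 and Rrm2) in a fit to wild-type libraries alone and ran from 0 to 1 as each library was left out. In het-labelled livers it was 2 with no filter on low counts (Mcm6 and Mki67), 0 in a fit to het-labelled libraries alone, and 0 to 1 as each library was left out; DESeq2 called 1, Mki67 in place of Mcm6. Averaged over genotypes it was 2 with median-ratio size factors (Mcm6 and Rrm2), 2 with no filter (E2f8 and Rrm2), 2 with a filter of at least 1 CPM in at least 2 libraries (Mcm6 and Rrm2), and 0 to 2 as each library was left out. The cause was not tested. Counts for the genotype effect on each diet, its average and the interaction were 0 in every alternative run. Where a library was left out, the lone library of its group was assumed to vary like the others. No paired analysis was possible because the library numbers run from 1 to 8 and no 2 groups share one. Depth limits the mitotic genes most: 5 could not be tested, and 14 of 37 genes averaged under 1 CPM.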

Other observations

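Of the other cell cycle genes, 3 passed edgeR for the diet only when averaged over genotypes (10.4% of all tested rows). The inhibitor gene Cdkn2c (p18) stood at 1.83 and 2.26 CPM on wild-type chow, 1.15 and 0.874 on wild-type HFD, 2.48 and 3.88 on het-labelled chow and 1.55 and 2.20 on het-labelled HFD. Its log2 change was -0.90 ± 0.23 (edgeR adjusted p = 0.0424, and 0.0206 to 0.147 over 14 alternatives). E2f2, an activator E2F, stood at 0.945 and 0.811, 2.48 and 4.86, 2.90 and 0.952, and 3.54 and 4.26 CPM in the same order. It rose by 1.54 ± 0.35 (edgeR adjusted p = 0.0262, and 0.000647 to 0.0982 over 14 alternatives), with het-labelled chow library 3 within the range of the HFD libraries.

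Lin52, a subunit of the DREAM and MuvB complexes, stood at 4.47 and 4.35, 5.88 and 5.36, 6.09 and 5.85, and 9.06 and 7.68 CPM. It rose by 0.42 ± 0.11 with HFD over both genotypes (edgeR adjusted p = 0.0446, and 0.0443 to 0.235 over 14 alternatives) and was higher by 0.51 ± 0.11 in het-labelled livers over both diets (edgeR adjusted p = 0.0456, and 0.0279 to 0.179). Spc24, a kinetochore protein, was lower in het-labelled livers by a log2 value of -0.61 ± 0.14 over both diets (edgeR adjusted p = 0.0483, and 0.0120 to 0.180 over 14 alternatives). It stood at 9.32 and 12.6, 15.3 and 11.4, 6.45 and 6.46, and 9.87 and 9.53 CPM. Each of these calls was lost when some single libraries were left out: Cdkn2c without library 1, 2, 4, 5, 6 or 7, E2f2 without 1, 2, 6 or 8, Lin52 for the diet without 1 to 7, and Lin52 for the genotype and Spc24 without any 1 of the 8.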
